A study of Homo sapiens with 6 samples.

Results

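DNA replication origin and fork genes code for the proteins that mark replication origins, open the double helix there and copy both strands. They were defined by name: every probe whose platform annotation gave 1 gene symbol, and that symbol stood on a list of origin, helicase, polymerase, clamp and fork factors. This gave 56 genes on 71 probes, out of 18336 genes and 31741 probes measured, and each of the 56 genes had at least 1 probe. Each sample was NCI-H446, a cell line grown from a human small cell lung cancer and kept in culture flasks, and its RNA went to a single-colour Phalanx OneArray of its own. A sample is called a flask below, although the labels do not say that each came from a separate one. The 3 control flasks (control 2, 5 and 6) were given 15 µl of DMSO, the solvent. The 3 drug flasks (drug 1, 3 and 4) were given 1 chemotherapy drug at 1 concentration. The sources used here name neither the drug nor its dose or exposure time. The source names carry other line numbers for drug 3 and drug 4 and other DMSO volumes for control 5 and 6, and the sample characteristics, which are the same within a group, were used.

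Values below are levels on the scale of log2(intensity + 1) after quantile normalization of the 6 arrays, and a fold change is the drug mean minus the control mean on that scale. A gene with several probes was read from its brightest probe. The test was limma over all 31741 probes, two-sided, with Benjamini-Hochberg adjustment, and a gene is called lower or higher at an adjusted p below 0.05. The median intensity of an array lay between 376 and 476 before normalization. Of 9 neuroendocrine markers, 3 were called higher with the drug and 0 lower, where 17.6% of all genes were called higher and 17.5% lower. At an unadjusted limma p below 0.05, 4 of the 9 were higher and 0 lower. At that p 3897 of all 18336 genes were higher and 3945 lower. NEUROD1 and GRP lay under the lower quartile of all probes, 6.86, in both groups. A group mean under that quartile is called dim. The neural adhesion molecule NCAM1, used to diagnose this cancer, stood at 7.06, 7.17 and 7.37 in the control flasks and at 12.07, 12.26 and 12.49 in the drug flasks, and its other probes rose 3.98-fold and 3.06-fold. Of 7 non-neuroendocrine markers, 3 were called lower and 0 higher, as at the unadjusted p. These were YAP1, CAV1 and AXL, at log2 fold changes of -2.48, -1.79 and -1.55, and YAP1 stood at 14.20, 14.23 and 14.27 in the control flasks. The identity of the line was not tested. Whether this change of markers has a part in the results below was not tested.

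In each cell cycle the origin recognition complex (ORC), CDC6 and CDT1 load the MCM helicase onto DNA as an inactive ring, a step called licensing. In S phase the kinase CDC7 with DBF4, together with cyclin-dependent kinases, recruits CDC45 and GINS, which turn the ring into the working helicase. Primase and the DNA polymerases then copy the strands, held to DNA by the sliding clamp PCNA, which the RFC complex loads. Many of these genes are known targets of E2F transcription factors and are transcribed most around the start of S phase, so that on bulk arrays fewer cells in S phase and less RNA per cell cannot be told apart.

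Replication genes were more often lower than higher in the drug flasks, but most falls were modest and a few genes rose. Of the 56 genes, 23 were called lower (41.1%), against 17.5% of all genes, and 4 were called higher (7.14%), against 17.6% of all genes. The other 29 did not pass. The median log2 fold change of the 56 genes was -0.45, beside 0.0075 for all genes, and 44 of the 56 values were below 0. The ranges of the control and drug arrays did not overlap in 37 genes (66.1%, against 47.0% of all genes). All drug arrays were below all control arrays in 31 of the 56 genes, against 23.3% of all genes. At least 2-fold falls were called in 6 genes (10.7%, against 7.68% of all genes): GINS3, DNA2, MCM5, CDT1, ORC6 and MCM7. The 4 genes called higher were ORC4, RFC1, GINS4 and PRIM2, each a subunit of a complex in which other subunits fell. The count of genes called lower ran from 17 (without control 5 or without drug 3) to 24 (without control 6) when 1 array was left out, and that of genes called higher from 2 (without drug 3) to 4. Calls over the whole array also became fewer. Over all 31741 probes, 5114 were called lower with the 6 arrays. That number was 4380 without control 5, 3881 without drug 3 and 4757 without control 6. Probes called higher went from 4898 to 3756 without drug 3. Only 7 falls and 2 rises among the 56 genes passed a test against a minimum log2 change of 0.5. Of all 18336 genes, 1390 falls and 1430 rises passed it.

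**Figure D1:**
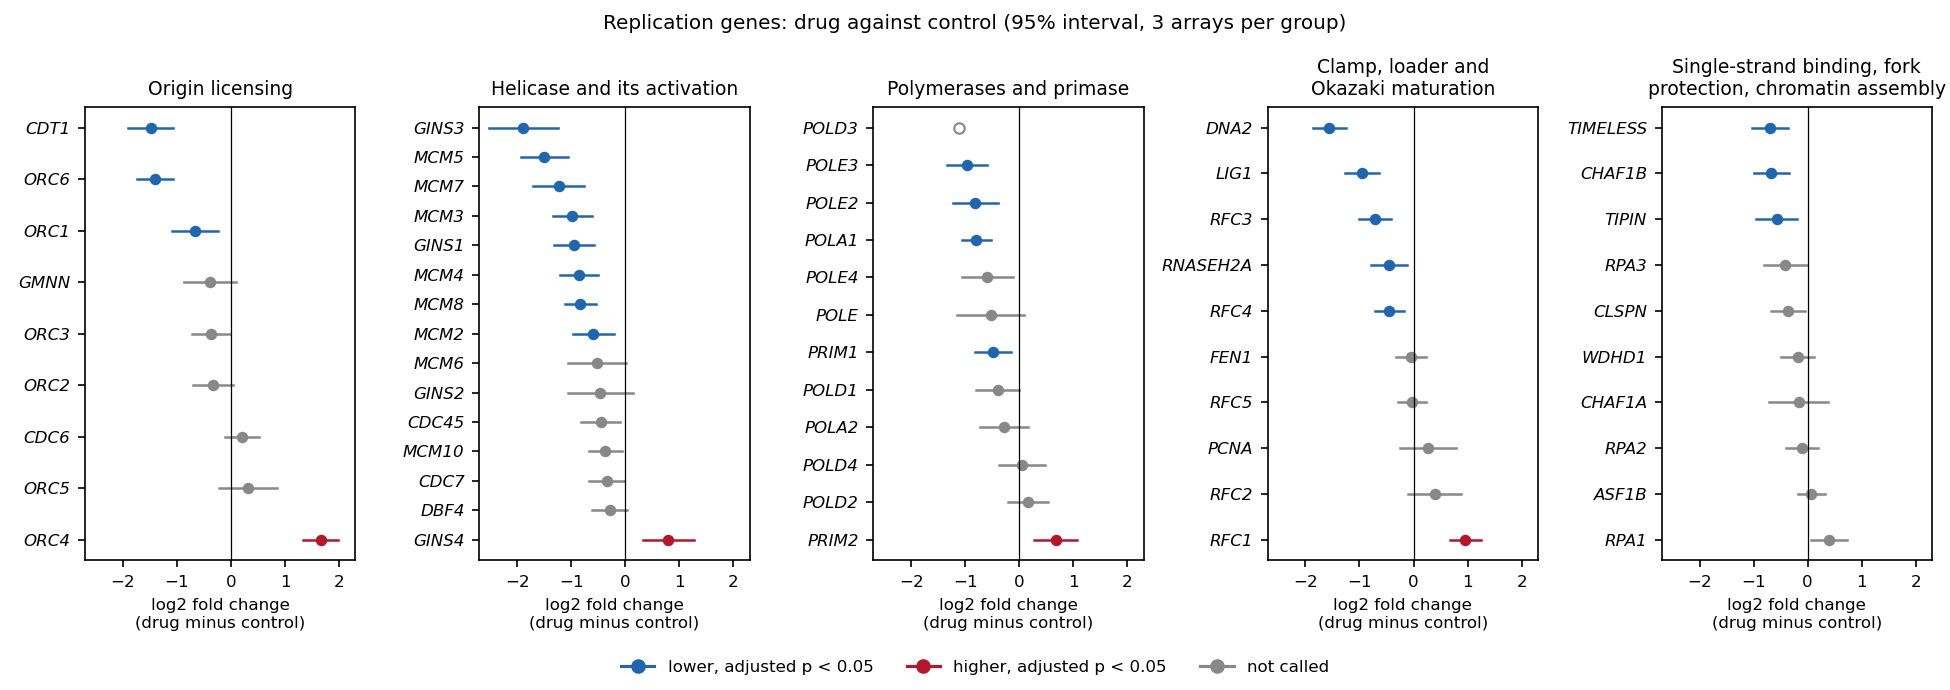
Log2 fold change (drug minus control) of the 56 replication genes by role, each point the brightest probe with its 95% interval, blue for called lower, red for called higher and grey for not called. Blue points stand in all 5 panels, red points in 4 of them, and POLD3 is drawn as an open circle without its interval, which runs from -8.97 to 6.73.

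Promoters are shown because E2F sites are a known feature of this family. Windows of 300 bases (250 before and 50 after the start) came from RefSeq on GRCh38.p14, and 49 of the 56 genes matched one by symbol. MCM4, MCM5, GINS4, POLD3, DNA2, RPA2 and RPA3 did not. An E2F word was any of TTTCCCGC, TTTCGCGC, TTTGCCGC and TTTGGCGC on either strand. At least 1 such word stood in a window of 23 of the 49 genes (46.9%), beside 5.54% of the 14288 genes on the array that have a window. By role, a word was present in 9 of 12 helicase genes, 4 of 9 licensing genes, 5 of 11 polymerase genes, 3 of 9 genes of the clamp group and 2 of 8 genes of the fork group. Among the genes called lower 12 of 20 had a word, among those not called 11 of 26, and among those called higher 0 of 3. Over all measured genes with a window, the shares were 7.78% of those lower, 4.86% of those not called and 5.59% of those higher. A count over 3 genes is too small to be told from that last share. These counts describe the letters of the windows, and no test was made of them. CCAAT, the word bound by NF-Y, was present in 30 of the 49 (61.2%, beside 42.5% of measured genes), and TTTGAA, the CHR word of genes that peak in mitosis, in 3 (6.12%, beside 15.8%). Pairs of E2F words overlapped in 4 cases, in MCM6, MCM2 and TIPIN, and in MCM7 an E2F word and a CCAAT word shared 1 base.

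The stretches from 180 bases before to 30 bases after the start are printed 5′ to 3′ for 6 genes that fell and for 2 that rose, with E2F words in capitals. The licensing factor CDT1 and the helicase subunits MCM3, MCM7 and GINS3 are followed by the polymerase subunit POLA1 and the ligase LIG1, then by the risers ORC4 and RFC1, in whose windows no word was found. The 6 printed genes that fell all hold a word, so this choice does not show how words and falls go together. Only 12 of 20 genes called lower had a word, and ORC6 and POLE3 were among those without. A word also stood in 11 of 26 genes not called, among them PCNA, CDC6 and MCM6.
CDT1, chr16:88803609-88803818, plus strand: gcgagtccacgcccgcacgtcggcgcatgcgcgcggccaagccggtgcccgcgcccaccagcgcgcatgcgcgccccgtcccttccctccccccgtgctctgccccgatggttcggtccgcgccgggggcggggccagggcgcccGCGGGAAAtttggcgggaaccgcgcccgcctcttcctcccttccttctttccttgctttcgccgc
MCM3, chr6:52284713-52284922, minus strand: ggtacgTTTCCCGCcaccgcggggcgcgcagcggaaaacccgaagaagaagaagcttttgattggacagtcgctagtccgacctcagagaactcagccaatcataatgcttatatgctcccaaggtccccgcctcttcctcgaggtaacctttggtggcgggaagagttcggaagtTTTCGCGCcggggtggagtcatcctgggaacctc
MCM7, chr7:100101368-100101577, minus strand: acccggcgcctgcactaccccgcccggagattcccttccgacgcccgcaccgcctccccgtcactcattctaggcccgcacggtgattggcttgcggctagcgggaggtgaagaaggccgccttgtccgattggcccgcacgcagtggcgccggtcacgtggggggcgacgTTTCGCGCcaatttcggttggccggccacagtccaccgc
GINS3, chr16:58392291-58392500, plus strand: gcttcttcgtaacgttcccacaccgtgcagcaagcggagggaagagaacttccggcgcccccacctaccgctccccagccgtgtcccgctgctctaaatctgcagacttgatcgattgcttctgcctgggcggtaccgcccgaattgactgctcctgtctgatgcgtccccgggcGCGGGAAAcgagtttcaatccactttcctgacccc
POLA1, chrX:24693738-24693947, plus strand: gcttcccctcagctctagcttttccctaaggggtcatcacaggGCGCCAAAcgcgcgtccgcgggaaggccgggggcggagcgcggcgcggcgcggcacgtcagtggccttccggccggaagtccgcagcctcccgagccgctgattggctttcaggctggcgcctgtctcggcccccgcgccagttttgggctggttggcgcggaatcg
LIG1, chr19:48170315-48170524, minus strand: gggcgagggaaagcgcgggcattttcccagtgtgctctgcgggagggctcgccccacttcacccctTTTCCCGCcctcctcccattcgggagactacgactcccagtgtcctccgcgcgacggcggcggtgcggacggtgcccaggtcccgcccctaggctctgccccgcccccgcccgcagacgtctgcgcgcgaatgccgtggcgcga
ORC4, chr2:148021522-148021731, minus strand: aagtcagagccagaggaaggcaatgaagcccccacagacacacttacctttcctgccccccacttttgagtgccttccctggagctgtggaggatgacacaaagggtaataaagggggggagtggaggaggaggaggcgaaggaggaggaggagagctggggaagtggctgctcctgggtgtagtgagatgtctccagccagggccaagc
RFC1, chr4:39366333-39366542, minus strand: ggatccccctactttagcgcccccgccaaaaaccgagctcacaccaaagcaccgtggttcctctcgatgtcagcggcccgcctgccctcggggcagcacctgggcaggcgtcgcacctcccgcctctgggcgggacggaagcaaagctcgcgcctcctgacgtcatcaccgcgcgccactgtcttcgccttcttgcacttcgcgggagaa
The 31 words of the 23 genes began between 187 bases before and 27 bases after the start, with a median of 35 bases before it. In GINS3 the word began 5 bases before the start, in MCM7 9 bases before it and in MCM3 4 bases before it, with a further word 174 bases before it in MCM3. MCM7 has another word 187 bases before the start, outside the stretch shown. In POLA1 and LIG1 the words lay farther away, at 137 and 114 bases before the start.

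**Figure D2:**
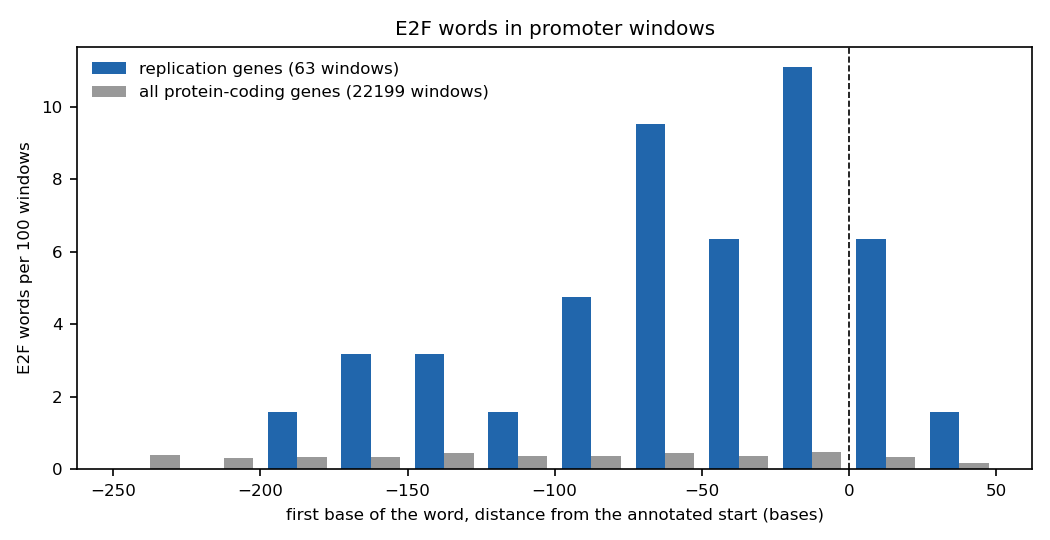
E2F words per 100 promoter windows against the distance of their first base from the annotated start, in bins of 25 bases, for the 63 windows of replication genes (blue) and the 22199 windows of all protein-coding genes (grey). The blue bars are tallest just before the start, at 11.1 words per 100 windows from 25 to 1 bases before it, where the grey bar is at 0.464.

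Licensing genes split. Of 9, 3 were called lower (CDT1, ORC6 and ORC1), 1 was called higher (ORC4) and 5 missed the threshold. The shares were 33.3% lower, against 17.5% of all genes, and 11.1% higher, against 17.6%, so rises were no more frequent than over all genes. The median log2 fold change was -0.37. CDT1, which brings the MCM ring to ORC-bound DNA and whose promoter is printed above, stood at 10.93, 11.21 and 11.45 in the control flasks and at 9.56, 9.93 and 9.63 in the drug flasks. Every drug array was below every control array. The fall was 2.80-fold, a log2 fold change of -1.49 (SE 0.175, adjusted p = 0.000684). ORC6, the smallest ORC subunit, which is only loosely held in the human complex, stood at 10.51, 10.33 and 10.32 in the control flasks and at 8.98, 8.79 and 9.19 in the drug flasks. The groups were apart again, by a log2 fold change of -1.40 (SE 0.143, adjusted p = 0.000365).

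ORC4, an AAA+ subunit of the ORC core, went the other way, at 9.60, 9.49 and 9.21 in the control flasks and at 11.17, 11.03 and 11.07 in the drug flasks. Its log2 fold change was 1.66 (SE 0.140, adjusted p = 0.000164), a 3.16-fold rise and the largest among the 56 genes. Its other probe rose 2.20-fold (adjusted p = 0.000941), and the call held in all 17 alternatives. ORC1, the subunit whose level cycles and which starts assembly of the complex in human cells, stood at 11.14, 11.44 and 10.77 in the control flasks and at 10.51, 10.45 and 10.38 in the drug flasks. The groups did not overlap and the log2 fold change was -0.67 (SE 0.18, adjusted p = 0.0263). This call was lost without control 2, control 5, drug 1, drug 3 or drug 4 (adjusted p = 0.063, 0.0647, 0.0684, 0.0802 and 0.0767), with the values as deposited (0.064) and with arrays scaled to their 75th percentile (0.0547). ORC2, ORC3 and ORC5 did not pass, at -0.33, -0.37 and 0.31.

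CDC6, the ATPase that works with ORC to load the ring, had the smallest change of the group. It stood at 11.21, 11.27 and 11.32 in the control flasks and at 11.59, 11.57 and 11.25 in the drug flasks, so the groups overlapped. Its log2 fold change of 0.20 had a 95% interval from -0.11 to 0.52. Geminin, GMNN, which blocks CDT1 after origins have fired, had a log2 fold change of -0.39 (95% interval -0.87 to 0.090) and overlapping groups.

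The helicase group held the most falls, 8 of 15 (53.3%, against 17.5% of all genes), with 1 rise (6.67%, against 17.6%). Its median log2 fold change was -0.59. All 6 subunits of the ring, MCM2 to MCM7, had values below 0, and 5 of the 6 were called lower. MCM5 stood at 11.03, 11.18 and 10.87 in the control flasks and at 9.70, 9.72 and 9.16 in the drug flasks, a log2 fold change of -1.50 (SE 0.185, adjusted p = 0.000833). MCM7 stood at 12.96, 13.22 and 13.60 against 12.17, 12.14 and 11.77, a log2 fold change of -1.23 (SE 0.198, adjusted p = 0.00279). MCM3 stood at 11.68, 11.42 and 11.31 against 10.36, 10.43 and 10.69, a log2 fold change of -0.98 (SE 0.154, adjusted p = 0.00244). For all 3 of these genes the lowest control array lay above the highest drug array.

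MCM4 and MCM2 changed by -0.86 and -0.59 on the log2 scale (adjusted p = 0.00434 and 0.0297). The MCM2 call was lost without control 2, control 5, drug 1 or drug 3 (adjusted p = 0.0818, 0.0913, 0.108 and 0.0991), with the values as deposited (0.0815) and with 75th percentile scaling (0.0504). MCM6 stood at 9.54, 9.87 and 9.07 in the control flasks and at 9.19, 9.03 and 8.71 in the drug flasks. Control 6 was its lowest control array and lay below drug 1, and the log2 fold change of -0.52 did not pass (95% interval -1.06 to 0.019, adjusted p = 0.141). Without control 6 it was -0.73 and was called (adjusted p = 0.0382). The 2 other members with an MCM name, both outside the ring, differed in call. MCM8, a helicase of recombination, fell by 0.83 on the log2 scale (adjusted p = 0.00174). MCM10, which helps to start the helicase, had -0.37 (adjusted p = 0.0707) on its brighter and -0.44 on its other probe. MCM10 was called without control 6 (adjusted p = 0.0381).

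GINS, the small complex that joins the ring with CDC45, spread widely. GINS3 stood at 10.06, 10.70 and 10.41 in the control flasks and at 8.96, 8.56 and 8.0 in the drug flasks. All drug arrays were below all control arrays, and the log2 fold change of -1.88 (SE 0.272, adjusted p = 0.00167), a 3.69-fold fall, was the largest fall of the 56 genes. GINS1 fell by 0.94 on the log2 scale (SE 0.159, adjusted p = 0.00344). GINS4 rose: it stood at 10.19, 10.39 and 9.67 in the control flasks and at 10.74, 10.87 and 11.04 in the drug flasks, a log2 fold change of 0.80 (SE 0.203, adjusted p = 0.021). Its other probe was also called, at 0.40 (adjusted p = 0.0471). The call on the brighter probe was lost without drug 3 or drug 4 (adjusted p = 0.0637 and 0.0704), with the values as deposited (0.0693) and with arrays centred on their medians (0.0991). GINS2 did not pass at -0.46 (95% interval -1.06 to 0.15), with control 6 again the lowest control array, and without control 6 it was -0.74 and called (adjusted p = 0.021).

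CDC45 and the kinase CDC7 with its partner DBF4 did not pass. CDC45 had -0.45 on the log2 scale (adjusted p = 0.0644) and CDC7 -0.34 (adjusted p = 0.113), with all drug arrays below all control arrays in both. CDC45 was called in 7 of 17 alternatives (adjusted p from 0.0146 to 0.0454), and CDC7 in 3, among them without control 2 (adjusted p = 0.0422). DBF4, the activating partner of CDC7, had the smallest change of the group, -0.29 (95% interval -0.62 to 0.041), at 7.07, 7.22 and 7.28 in the control flasks and 7.09, 6.89 and 6.72 in the drug flasks. Drug 1 lay within the control range.

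**Figure D3:**
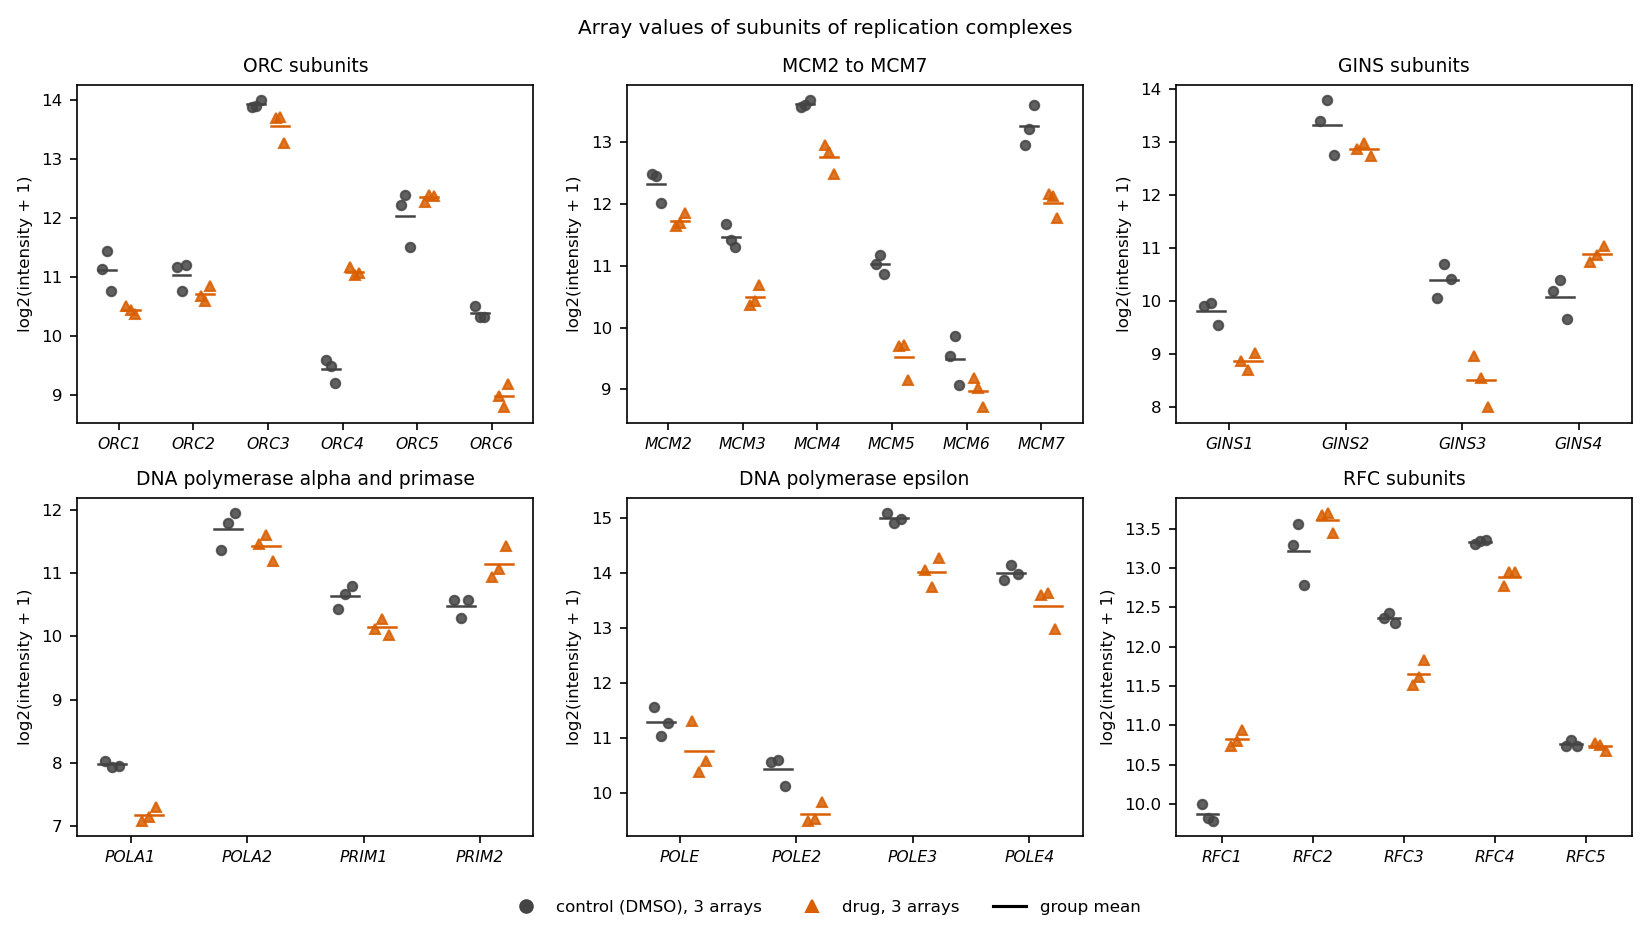
Log2(intensity + 1) on each of the 6 arrays for the subunits of 6 replication complexes, control arrays as grey circles and drug arrays as orange triangles, with the mean of each group as a line. Levels of different genes come from different probes and cannot be set against each other. In MCM2 to MCM7 all drug means lie below the control means, whereas ORC4, GINS4, PRIM2 and RFC1 lie above them beside subunits of the same complex that lie below.

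Of 12 polymerase and primase genes, 4 were called lower (33.3%, against 17.5% of all genes) and 1 higher (8.33%, against 17.6%). The other 7 did not pass, and the median log2 fold change was -0.51. None of the falls reached 2-fold. DNA polymerase epsilon copies the leading strand, and all 4 of its genes had values below 0. POLE3, a histone-fold subunit shared with a chromatin remodeller, stood at 15.09, 14.91 and 14.99 in the control flasks and at 14.06, 13.75 and 14.27 in the drug flasks, a log2 fold change of -0.97 (SE 0.159, adjusted p = 0.00307). POLE2 stood at 10.56, 10.61 and 10.13 against 9.50, 9.53 and 9.83, a log2 fold change of -0.81 (SE 0.174, adjusted p = 0.0103). Both genes had all drug arrays below all control arrays.

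The catalytic subunit POLE gave different calls on its 2 probes. The brighter had -0.53 with overlapping groups (adjusted p = 0.186), drug 1, at 11.31, lying among the control arrays. Without drug 1 it was -0.81 and called (adjusted p = 0.0335). The other had 10.28, 10.22 and 10.22 in the control flasks and 9.11, 9.04 and 9.16 in the drug flasks, a log2 fold change of -1.14 (SE 0.109, adjusted p = 0.000282). POLE4 was likewise called on its dimmer probe alone, at -0.62 (adjusted p = 0.00486), against -0.59 (adjusted p = 0.0606) on the brighter.

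In the complex of DNA polymerase alpha and primase, which starts every new strand, POLA1 and PRIM1 fell and PRIM2 rose. POLA1, the catalytic subunit, stood at 8.03, 7.94 and 7.96 in the control flasks and at 7.09, 7.15 and 7.31 in the drug flasks, so the groups were apart. Its log2 fold change was -0.79 (SE 0.117, adjusted p = 0.00184), and -0.51 with arrays scaled to their 75th percentile (adjusted p = 0.0427). PRIM1, the small primase subunit that makes the RNA primer, stood at 10.44, 10.67 and 10.79 against 10.12, 10.28 and 10.03, a log2 fold change of -0.48 (SE 0.141, adjusted p = 0.0357). That call was lost without any array but control 2 (adjusted p from 0.0614 to 0.116) and with 75th percentile scaling (0.0708). PRIM2, the large primase subunit, stood at 10.57, 10.29 and 10.57 against 10.94, 11.07 and 11.43, all drug arrays above all control arrays. Its log2 fold change was 0.67 (SE 0.168, adjusted p = 0.0195), and the call was lost without control 5 or drug 3 (adjusted p = 0.063 and 0.0516) and with the values as deposited (0.078) or centred on array medians (0.0666).

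POLA2 had -0.28 and did not pass. None of the 4 genes of DNA polymerase delta, which copies the lagging strand, was called. In limma 1 of the 4, POLD1, had an unadjusted p below 0.05, as did 7842 of all 18336 genes. POLD4 changed least in the polymerase group, at 14.50, 14.84 and 14.18 in the control flasks and 14.58, 14.62 and 14.45 in the drug flasks, a log2 fold change of 0.047 (95% interval -0.38 to 0.48). POLD1 and POLD2 had -0.40 and 0.16. The POLD3 probe was above 10 on control 5 and drug 3 and dim on the other arrays, and its 95% interval, from -8.97 to 6.73, spans large changes in both directions.

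In the group of the clamp, its loader and the enzymes that finish Okazaki fragments, 5 of 10 were called lower and 1 higher, with a median log2 fold change of -0.25. The count of falls was 3 without control 5, without drug 1 or without drug 3. Fewer of all probes were also called lower without each of these arrays. DNA2, a nuclease and helicase that trims long flaps, stood at 11.24, 11.38 and 11.34 in the control flasks and at 9.87, 9.58 and 9.83 in the drug flasks. No drug array came near the control range, and the log2 fold change was -1.56 (SE 0.129, adjusted p = 0.000151), a 2.95-fold fall. LIG1, the ligase that seals Okazaki fragments, stood at 10.56, 10.62 and 10.31 against 9.63, 9.57 and 9.43, a log2 fold change of -0.95 (SE 0.134, adjusted p = 0.00152). RNASEH2A, the catalytic subunit of RNase H2, which removes ribonucleotides from DNA, fell by 0.45 on the log2 scale (SE 0.138, adjusted p = 0.0425). The RNASEH2A call was lost without any array but control 2 (adjusted p from 0.0652 to 0.125) and with 75th percentile scaling (0.0554).

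The clamp itself did not pass. PCNA stood at 15.51, 15.87 and 14.99 in the control flasks and at 15.75, 15.71 and 15.69 in the drug flasks, so that every drug array lay inside the control range, and its log2 fold change was 0.26 (95% interval -0.25 to 0.78). FEN1, the flap nuclease that binds PCNA, gave different answers on its 2 probes. The brighter had -0.046 (95% interval -0.32 to 0.23) at a level near 17 on every array, whereas the other stood at 14.70, 14.70 and 13.97 in the control flasks and at 13.51, 13.56 and 13.61 in the drug flasks, a log2 fold change of -0.89 (adjusted p = 0.0158). Whether the brighter probe was near its upper limit was not tested.

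The clamp loader split as ORC did. RFC1, its large subunit, stood at 10, 9.82 and 9.79 in the control flasks and at 10.74, 10.80 and 10.94 in the drug flasks, with all drug arrays above all control arrays. Its log2 fold change was 0.96 (SE 0.124, adjusted p = 0.00103), and the call held in all 17 alternatives. RFC3, a small subunit, stood at 12.37, 12.43 and 12.30 in the control flasks and at 11.52, 11.61 and 11.83 in the drug flasks, a log2 fold change of -0.71 (SE 0.128, adjusted p = 0.00467), and its other probe had -0.74 (adjusted p = 0.00841). RFC4, another small subunit, fell by 0.45 on the log2 scale (adjusted p = 0.0221), a call lost without control 5, drug 1 or drug 3 (adjusted p = 0.0609, 0.109 and 0.0681). RFC5 changed least in the group, at 10.74, 10.82 and 10.74 against 10.77, 10.75 and 10.68, a log2 fold change of -0.030 (95% interval -0.29 to 0.23), and RFC2 had 0.39 and did not pass.

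Of 10 genes of single-strand binding, fork protection and chromatin assembly, 3 were called lower and 0 higher, with a median log2 fold change of -0.28. In limma without adjustment, 5 of the 10 were lower and 1 higher at a p below 0.05. Of all 18336 genes, 3945 were lower and 3897 higher at that p. TIMELESS and TIPIN form the complex that keeps the fork intact when it stalls, and both fell. TIMELESS stood at 11.78, 11.61 and 11.37 in the control flasks and at 10.84, 10.90 and 10.93 in the drug flasks, a log2 fold change of -0.70 (SE 0.138, adjusted p = 0.00736), and its other probe had -0.91 (adjusted p = 0.00191). TIPIN stood at 11.60, 11.37 and 11.49 against 10.77, 10.74 and 11.21, a log2 fold change of -0.57 (SE 0.163, adjusted p = 0.0324). The TIPIN call was lost without any array but drug 4 (adjusted p from 0.0505 to 0.124), with the values as deposited (0.0814), with 75th percentile scaling (0.0504) and with the mean of its probes (0.118). Its other probe did not pass at -0.35. Claspin, CLSPN, which carries the stall signal to CHEK1, had -0.37 (adjusted p = 0.0775), and it was called without control 6 (adjusted p = 0.0322).

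Chromatin assembly factor 1 places histones behind the fork. Its middle subunit CHAF1B stood at 11.62, 11.76 and 11.78 in the control flasks and at 11.13, 11.18 and 10.83 in the drug flasks, a log2 fold change of -0.67 (SE 0.138, adjusted p = 0.00853), with the groups apart. Its large subunit CHAF1A had -0.17 (95% interval -0.71 to 0.38) and overlapping groups. The histone chaperone ASF1B, which hands histones to that factor, changed least in the group, at 10.06, 10.14 and 10.12 against 10.15, 10.18 and 10.19. Its drug arrays lay just above its control arrays, by a log2 fold change of 0.067 (95% interval -0.18 to 0.32). WDHD1, which ties the helicase to polymerase alpha, had -0.18 on its brighter probe and was called on the other, at -0.51 (adjusted p = 0.0339).

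None of the 3 subunits of RPA, the protein that coats single-stranded DNA, was called. In limma 2 of the 3 had an unadjusted p below 0.05, RPA1 with a value above 0 and RPA3 below 0. Of all 18336 genes, 7842 had such a p. RPA1, the large subunit, stood at 14.51, 14.53 and 14.46 in the control flasks and at 14.98, 15.04 and 14.64 in the drug flasks, all drug arrays above all control arrays. Its log2 fold change of 0.39 (adjusted p = 0.0788) was called without drug 4 (0.51, adjusted p = 0.0234). RPA2 and RPA3 had -0.10 and -0.41.

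The other genes of the pathway were read in lists of the same kind, with counts and shares only. Over all genes, 17.5% were called lower and 17.6% higher. Of 19 genes that control origin firing, 12 were called lower (63.2%) and 2 higher (10.5%), with a median log2 fold change of -0.97. Cyclin A, CCNA2, which drives S phase with CDK2, changed by -2.73 (SE 0.118), the inhibitor of the anaphase-promoting complex FBXO5 by -2.35 (SE 0.13) and TICRR, which brings TOPBP1 to origins, by -1.64 (SE 0.177), with adjusted p-values of 1.71e-05, 3.28e-05 and 0.000469. The 2 that rose were cyclin E1, CCNE1, by 0.91 on the log2 scale and LRWD1, a partner of ORC, by 0.76. Cyclin E2, CCNE2, fell by 1.22 on the log2 scale.

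Of 11 genes of nucleotide supply, 6 were called lower (54.5%) and 2 higher (18.2%), with a median of -0.42. The share called higher is near that of all genes. Thymidylate synthase, TYMS, changed by -3.00 (SE 0.185) and thymidylate kinase, DTYMK, by -1.84 (SE 0.214), with adjusted p-values of 4.9e-05 and 0.000632. SAMHD1, which breaks down deoxynucleotides and was dim in the control flasks, rose by 1.43 on the log2 scale (SE 0.176, adjusted p = 0.000809). RRM2, the small subunit of ribonucleotide reductase, was called higher at 0.44 (adjusted p = 0.0493) on 1 of its 3 probes. That call was lost without control 2, control 6, drug 1, drug 3 or drug 4 (adjusted p from 0.0825 to 0.157) and under each other scaling of the arrays (from 0.1 to 0.363).

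Of 10 genes of the replication checkpoint, WEE1 and CHEK1 were called lower, at -1.63 and -1.53 (adjusted p = 0.000307 and 0.000148), and 0 higher, at the adjusted and at the unadjusted p in limma. That share, 20.0%, is near the 17.5% of all genes called lower. RAD9A, a subunit of the checkpoint clamp, had -0.07 on its brighter probe and was called higher on the other, at 0.77 (adjusted p = 0.0149). Of 18 further replisome and chromatin genes, 10 were called lower (55.6%) and 3 higher (16.7%), with a median of -0.52. The share called higher is again near that of all genes. UHRF1, which keeps DNA methylation through replication, changed by -2.15 (SE 0.213), the RNase H2 subunit RNASEH2B by -1.99 (SE 0.175) and MCM9, the partner of MCM8, by -1.86 (SE 0.194), with adjusted p-values of 0.000326, 0.000194 and 0.000398. The 3 that rose were ASF1A, the paralog of ASF1B, by 1.21 on the log2 scale, CHTF18, which replaces RFC1 in another clamp loader, by 1.12, and topoisomerase 1, TOP1, by 0.87.

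Of 13 genes of the E2F and retinoblastoma families, 5 were called lower (38.5%) and 2 higher (15.4%), with a median of -0.12. Here too the share called higher is near that of all genes. The 2 called higher were TFDP2, a partner of E2F proteins, at 1.22, and E2F5, at 0.61 and dim in both groups. The count of rises was 1 without control 5 and under each of the 3 other scalings. E2F3, an activator, changed by -1.82 (SE 0.175), and the repressors E2F7 and E2F8 by -1.59 (SE 0.204) and -1.34 (SE 0.155), with adjusted p-values of 0.000286, 0.001 and 0.000634. All 14 mitosis genes were called lower, with a median of -1.76, led by NDC80, AURKA and BUB1B at -2.46, -2.33 and -2.23, of which BUB1B was dim with the drug. The replication genes, with a median of -0.45 and 23 of 56 called lower, thus had a smaller median fall than the mitosis genes on the same arrays. No test was made of the difference between the lists.

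**Figure D4:**
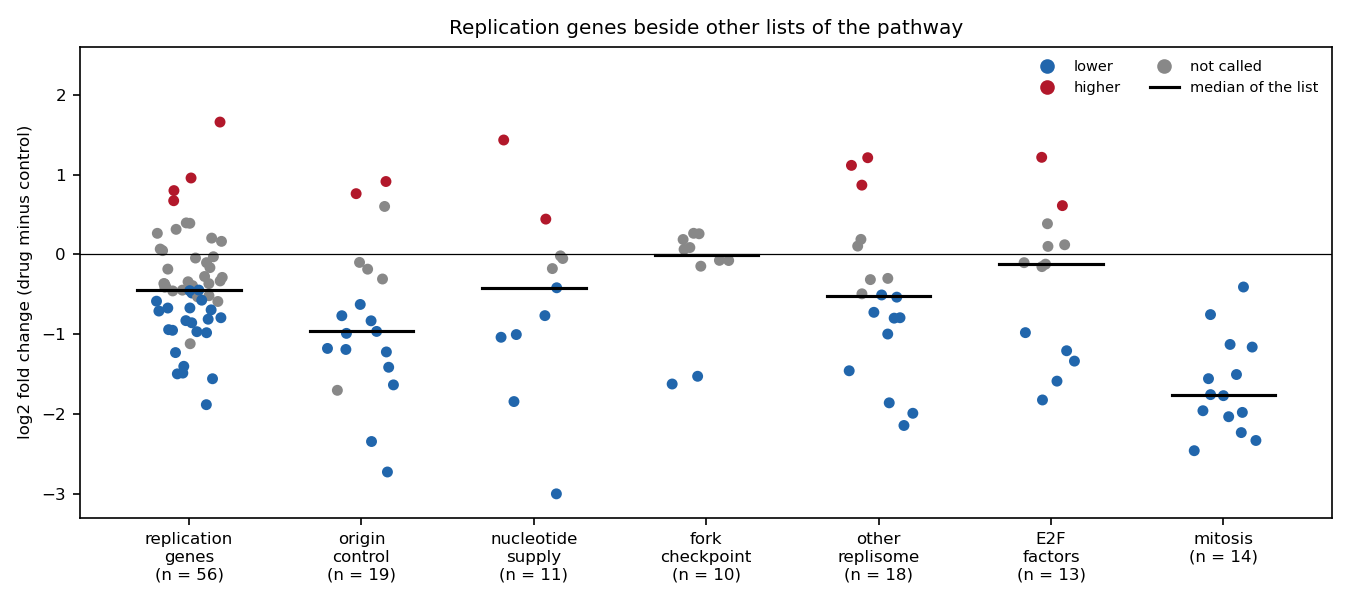
Log2 fold change (drug minus control) of each measured gene of the replication genes and of 6 other lists of the pathway, blue for called lower, red for called higher and grey for not called, with the median of each list as a black line and a small sideways scatter for visibility. The medians run from -0.006 for the replication checkpoint to -1.76 for mitosis, and the replication genes, at -0.45, hold both signs.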

How the data were processed

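The deposited table holds intensities on a linear scale for 31741 probes on 6 arrays, labelled with Cy5 per the labels' protocols. No source used here gives how the authors corrected background or scaled the values. The gap between the highest and lowest array median was 0.338 (log2). Of the deposited values, 462 on control 2, 968 on control 5 and 1 on drug 4 were below 0. The intensities were quantile normalized with these values kept. Any value below 0 after that step was set to 0, 1 was added and log2 taken. limma 3.58.1 in R 4.3.3 (lmFit and eBayes, no covariate) compared the groups, and the script was tested on simulated data with 200 changed probes. The labels speak of culture flasks without saying that each sample had its own, so p-values measure the spread between samples of 1 line, which may be technical, and 3 arrays a group limit the precision. Probe names came from GEO's platform annotation: 24740 probes name 1 gene, 977 several (not used) and 6024 none. Symbols were updated through RefSeq synonyms.

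The members and lists were chosen with earlier results of these data known, so no list was tested. Genes described with array values were, per role, the 4 largest falls, every rise and the smallest change. In other lists they were the 3 largest changes, plus every rise for nucleotide supply and further replisome genes. Other members, CCNE1, CCNE2, LRWD1, RAD9A, E2F5, TFDP2, the lineage markers and the promoters printed were chosen after their values were seen. Protein features and probe sequences were not used, so cross-hybridisation of probes with pseudogenes or relatives was not tested. The 17 alternatives changed scaling, the added constant (16 or 50), the probe filter, the variance model, the probe of a gene or the test, or left out 1 array.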

Additional observations from a re-analysis of the deposited data

How the results depend on the processing

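None of the 27 called replication genes changed direction in the 17 alternatives, 9 kept their call in all of them and 10 lost it only in the test against a minimum log2 change of 0.5. Leaving out 1 array ended the call of 8, all named with their arrays in the results. Of the genes not called, 10 were called in at least 1 alternative. The values as deposited and the scaling to the 75th percentile moved the median of all genes to 0.205 and 0.245, and centring on array medians to 0.074, against 0.0075. The median of the replication genes was then -0.437, -0.397 and -0.568, which is -0.642 relative to all genes under each of the 3, against -0.456. These 3 scalings differ by a nearly constant log2 shift of each array, so the equal differences follow from the arithmetic and are not separate support. The share of lower among called probes was 51.1%, and 46.0%, 43.7% and 58.0% under those scalings. Genes called higher numbered 2 of 56 with the values as deposited and with median centring, and from 2 to 4 without 1 array. The clamp group had 3 to 5 falls without 1 array. Against the minimum change of 0.5, 1390 of all 18336 genes were lower and 1430 higher. Of the 56 replication genes 7 were lower and 2 higher, with 3 falls in the helicase, 0 in the polymerase, 2 in the clamp and 0 in the fork group. The lists of origin control, nucleotide supply and further replisome genes then had 6, 2 and 4 falls. No paired analysis was possible because the control and drug flasks share no replicate numbers.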

Other observations

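The single POLD3 probe was bright on 1 array of each group. Control 5 had a deposited intensity of 4644 and drug 3 one of 1708, whereas control 2 and 6 had -8.55 and 17.4, and drug 1 and 4 had 20.5 and -1.49. The within-group SD on the log2 scale was 5.45, and 2 of the 31741 probes had a larger one.

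Of the 15 replication genes with several probes, 10 gave the same call on all of them and 15 the same sign. The 5 with different calls were POLE, POLE4, FEN1 and WDHD1, called lower on the dimmer probe alone, and TIPIN, called lower on the brighter alone. Counting a gene as lower when any of its probes was called gave 27 of 56 in place of 23. These counts over several probes were not made for all genes. The 27 thus cannot be set beside the 17.5% of all genes called lower on their brightest probe.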
